A study of Mus musculus with 4 samples.

Results

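Adventitial fibroblast genes are the genes by which fibroblasts of the outer sheath of large vessels and airways are usually told from fibroblasts of the alveolar wall. The 9 followed here, Pi16, Dpp4, Cd34, Ly6a, Ly6c1, Dcn, Lum, Dpt and Clec3b, were chosen by symbol and all 9 were present among 32285 measured genes. They were followed in mouse alveolospheres, organoids grown from alveolar type 2 (AT2) cells, the surfactant-making progenitors of the alveolus, together with PDGFRα+ lung fibroblasts. In the 2 YAP/TAZ knockdown (KD) libraries the AT2 cells were wildtype and the knockdown was directed to the PDGFRα+ fibroblasts. In the 2 control libraries both cell kinds were wildtype. Both groups grew in MTEC/Plus medium that held doxycycline, given in DMSO at 3 µg/mL, between day 7 and the harvest at day 14, so KD and control cells alike met the drug. The study calls its 2 libraries per group biological replicates but ties them to no animal or culture: the p-values therefore describe library-to-library spread, part of which may be technical. Neither the knockdown construct nor the age of the mice is stated in the sources used here.

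Adventitial fibroblasts form a collagen-rich cuff, and in mice their Pi16-positive, Dpp4-positive cells have been described as a reserve population shared by many organs. Cd34 encodes a sialomucin of stem cells, endothelium and stromal cells, and Ly6a (Sca-1) and Ly6c1 encode small GPI-anchored surface proteins. Dcn (decorin), Lum (lumican) and Dpt (dermatopontin) encode matrix proteins that bind collagen fibrils. YAP and TAZ are co-activators that are held back by Hippo signalling and act in the nucleus through TEAD factors.

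The promoters of Cd34, Ly6c1 and Dpt are shown because these members stood higher in KD mesenchyme, as described below. Of the 9 members, 5 had an entry in the RefSeq promoter table (GRCm38.p6); the sequences run 5′ to 3′ on the strand of the gene, from 250 bases before to 50 bases after the start. Capitals mark TATAAA, and GGAATG (the core of the TEAD site) and TGANTCA (the AP-1 site) would also have been capitals, all searched on both strands. Cd34 lies at chr1:194938571-194938870, plus strand, Ly6c1 at chr15:75048788-75049087, minus strand (the first of 2 entries), and Dpt at chr1:164796413-164796712, plus strand.
Cd34: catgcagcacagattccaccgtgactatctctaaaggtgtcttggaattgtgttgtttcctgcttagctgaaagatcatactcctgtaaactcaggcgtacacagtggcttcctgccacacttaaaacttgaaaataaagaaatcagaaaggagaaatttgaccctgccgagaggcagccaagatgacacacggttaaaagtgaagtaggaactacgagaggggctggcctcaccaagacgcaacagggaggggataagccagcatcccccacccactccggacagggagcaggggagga
Ly6c1: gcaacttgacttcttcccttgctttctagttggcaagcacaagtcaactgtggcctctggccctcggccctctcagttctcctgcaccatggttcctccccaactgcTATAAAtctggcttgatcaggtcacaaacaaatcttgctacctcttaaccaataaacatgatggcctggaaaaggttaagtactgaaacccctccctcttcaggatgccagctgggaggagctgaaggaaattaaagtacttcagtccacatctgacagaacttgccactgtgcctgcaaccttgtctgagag
Dpt: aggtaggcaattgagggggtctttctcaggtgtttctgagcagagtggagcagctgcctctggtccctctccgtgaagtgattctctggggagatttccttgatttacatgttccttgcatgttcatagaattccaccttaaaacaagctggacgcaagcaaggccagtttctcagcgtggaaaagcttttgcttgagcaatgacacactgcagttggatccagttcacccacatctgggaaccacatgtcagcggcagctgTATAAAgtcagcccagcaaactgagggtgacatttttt
The letters GGAATG were in none of the windows shown; among the members with an entry they were in that of Dpp4, and 14.7% of 32851 promoters hold them. TGANTCA was in 0 of the 5 members' windows, against 7.81% of all promoters, and TATAAA, which 13.6% of promoters hold, was in those of Ly6c1, Dpt and Dpp4. Counted from the start, its first base lay at -143 in Ly6c1, 12 in Dpt and -227 in Dpp4. The second Ly6c1 entry did not hold it.

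Cells were counted as unique molecular identifiers (UMIs), and raw counts were summed per library over 11 deposited mesenchymal classes. The KD libraries held 7472 and 5123 mesenchymal cells and the control libraries 12041 and 11480, from libraries of 44284602 to 71523447 UMIs. Library pairs shared 87 to 293 cell barcodes, at most 2.14% of the smaller library. Levels are gene counts per 1000000 UMIs of the summed cells (CPM), and the class names are the authors'. Yap1, a target of the knockdown, read 39.4 and 36.6 CPM in KD mesenchyme, against 63.2 and 64.8 CPM in control mesenchyme; for Wwtr1 (TAZ) the values were 187 and 173 CPM in KD, against 247 and 231 CPM in control. Pdgfra was at 291 to 315 CPM in KD and 297 to 313 CPM in control mesenchyme. AT2 marker RNA stood in the mesenchymal cells at 4.60% and 3.09% of its epithelial level in the KD libraries, against 3.03% and 2.07% in the control libraries, and bears on Dpp4 and Ly6c1 below.

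The label fitted these cells in part. No deposited mesenchymal class carried the whole set. Among classes with at least 50 cells in both libraries of a group, Pi16 and Lum were highest in the Myofib-like class. Of the same classes, Dcn was highest in Inflammatory Fibroblasts-2 and Myofib-like, Dpt in Inflammatory Fibroblasts-2, and Ly6a and Ly6c1 in the EMT-like class. Dpp4 and Clec3b stayed under 6 CPM in every mesenchymal class with at least 50 cells in both libraries of a group. The set is therefore called by its gene names from here on. The classes were made from the expression of these cells, so their order is a description with no test.

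**Figure D1:**
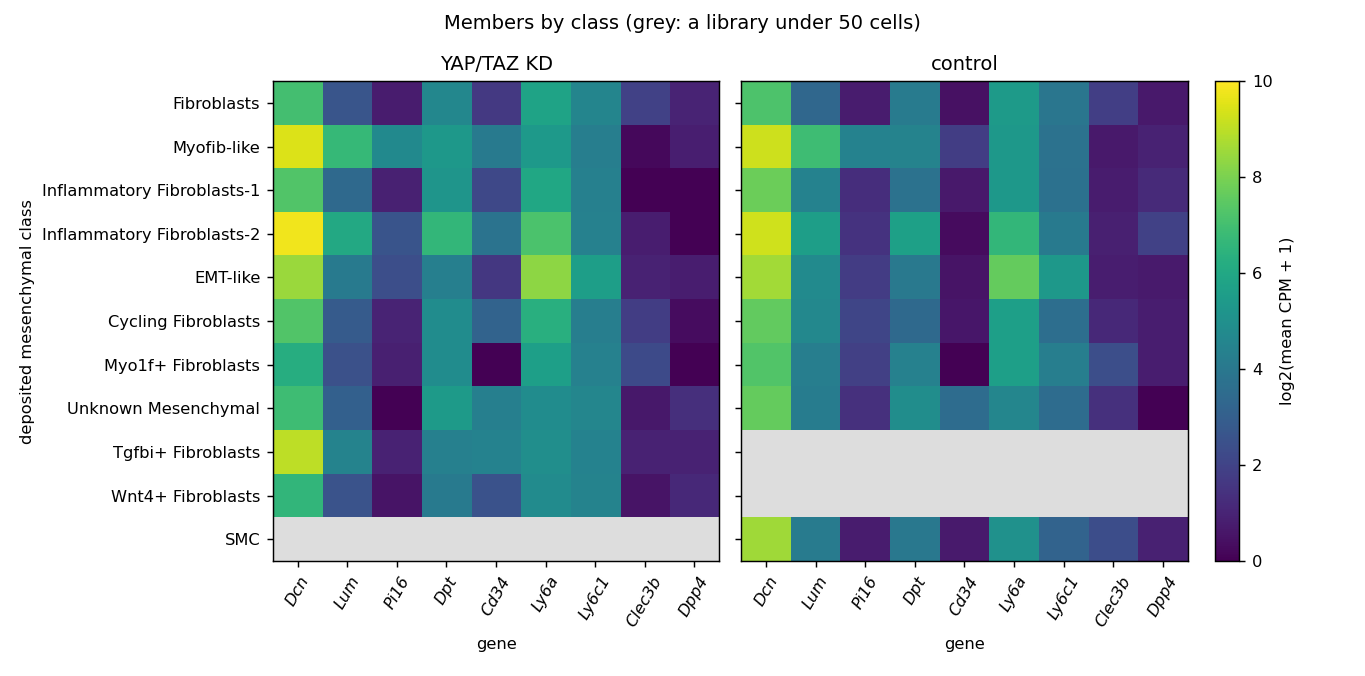
Mean level of each member, as log2(mean CPM + 1) over 2 libraries, in the 11 mesenchymal classes, KD left and control right; grey rows had a library with fewer than 50 cells. Colours compare classes down a column and not genes with each other: the brightest Dcn cells are Inflammatory Fibroblasts-2 and Myofib-like, the brightest Ly6a cell is EMT-like, and Dpp4 and Clec3b are dark throughout.

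Pi16, a secreted cysteine-rich protein whose RNA marks the adventitial reserve cells, was concentrated in the Myofib-like class. It read 25.2 and 26.9 CPM there in KD libraries, against 22.5 and 18.95 CPM in control libraries. The other mesenchymal classes with at least 50 cells lay apart from it, at 7.27 CPM or less in KD and 3.34 CPM or less in control. Outside the mesenchyme, the few mesothelial cells held 0 and 19.1 CPM in KD (0 and 2 counts), against 32.8 and 31.9 CPM in control (7 and 5 counts). Myofib-like cells held 60.5% of the mesenchymal Pi16 counts of KD libraries with 8.21% of their UMIs, and 63.4% with 12.5% of the UMIs in control libraries. Of all mesenchymal Pi16 counts, most were in cluster 4 of the class, with 154 of 263 in KD and 243 of 445 in control. In the class deposited simply as Fibroblasts, Pi16 was at 0.399 and 0.980 CPM in KD and 0.845 and 0.555 CPM in control.

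Lum followed the same class. In Myofib-like cells it read 104 and 102 CPM in KD libraries, against 97.7 and 137 CPM in control libraries, and in Inflammatory Fibroblasts-2 it read 73.4 and 56.7 CPM in KD, against 40.0 and 54.9 CPM in control. Dcn was at 1028 and 716 CPM in KD Inflammatory Fibroblasts-2, against 592 and 662 CPM in the control cells of that class. The Myofib-like class overlapped it in both groups, with 826 and 610 CPM in KD and 551 and 664 CPM in control. Dcn and Lum are neighbours on chromosome 10 (GRCm38), Dcn at 97479609 to 97518143 and Lum at 97565128 to 97572703, both on the plus strand and 47.0 kb apart. Over 32 points (8 classes in 4 libraries), the log2(CPM + 1) of Dcn and Lum had a Pearson r of 0.88, of Pi16 and Lum 0.79 and of Pi16 and Dcn 0.75. The points share libraries and differ in depth, so these values are descriptions.

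Ly6a, a marker of mouse progenitor and adventitial cells, was highest in the EMT-like class at 260 and 363 CPM in KD, against 157 and 238 CPM in control, apart from the next class, Inflammatory Fibroblasts-2 (137 and 151 CPM in KD, 89.4 and 106 CPM in control). EMT-like cells held 56.9% of the mesenchymal Ly6a counts in KD and 42.5% in control. Ly6c1 was also highest there, at 39.2 and 56.2 CPM in KD and 29.7 and 47.9 CPM in control. Ly6a and Ly6c1 had an r of 0.70 over the same 32 points. Transitional epithelial cells of the cultures held more of both than any mesenchymal class: Ly6a read 378 and 501 CPM in the KD ones, against 201 and 282 CPM in the control ones, and Ly6c1 read 358 and 513 CPM in KD, against 226 and 307 CPM in control. They lie on chromosome 15 (GRCm38), Ly6a at 74994877 to 74998031 and Ly6c1 at 75044018 to 75048830, both on the minus strand. The transcript of Ly6c1 is 97.6% identical to that of its neighbour Ly6c2 and 87.1% to that of Ly6a, so reads may be split among them; Ly6c2 was under 1 CPM in the mesenchyme of all 4 libraries.

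Dpt was highest in Inflammatory Fibroblasts-2, at 58.9 and 135 CPM in KD and 47.8 and 54.0 CPM in control. Cd34 had its highest KD levels in classes that overlapped each other: Tgfbi+ Fibroblasts (17.6 and 24.0 CPM), Unknown Mesenchymal (15.9 and 22.5 CPM) and Myofib-like (9.78 and 22.8 CPM). In control libraries Cd34 was highest in Unknown Mesenchymal, at 14.8 and 6.57 CPM from 3 and 2 counts, followed by Myofib-like at 2.22 and 2.77 CPM. Cd34 was at 0 in Myo1f+ Fibroblasts of all 4 libraries. Clec3b, which encodes the plasminogen-binding protein tetranectin, was at most 3.95 CPM in any KD class and 5.99 CPM in any control class with at least 50 cells in both libraries of the group. Its mesenchymal sums were 77 and 35 counts in KD and 85 and 86 counts in control.

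Dpp4, a membrane dipeptidase that in mouse fibroblasts marks the reserve population, was far higher in epithelial than in mesenchymal cells of these cultures. AT2 cells (cluster 9) held 120 and 127 CPM in KD libraries, against 117 and 116 CPM in control libraries. Mesenchymal cells held 1.28 and 0.477 CPM in KD, against 0.905 and 1.11 CPM in control. Free epithelial RNA, estimated from the share of AT2 marker RNA in mesenchymal cells, would give 3.49 and 1.55 CPM in the KD libraries and 1.49 and 1.19 CPM in the control libraries, more than was measured in each of the 4. The estimate is therefore too high for this gene, and the part of free RNA in its mesenchymal level was not resolved. The class with the highest Dpp4 among control cells was Inflammatory Fibroblasts-2, at 2.92 and 2.69 CPM (18 counts in each library); the KD cells of this class held 0 counts in both libraries. The class is given because its control level was the highest, and Dpp4 reached the filter on low counts there through control cells alone. The difference is therefore a description. The adjusted p by edgeR in the class was 0.068 and did not pass.

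**Figure D2:**
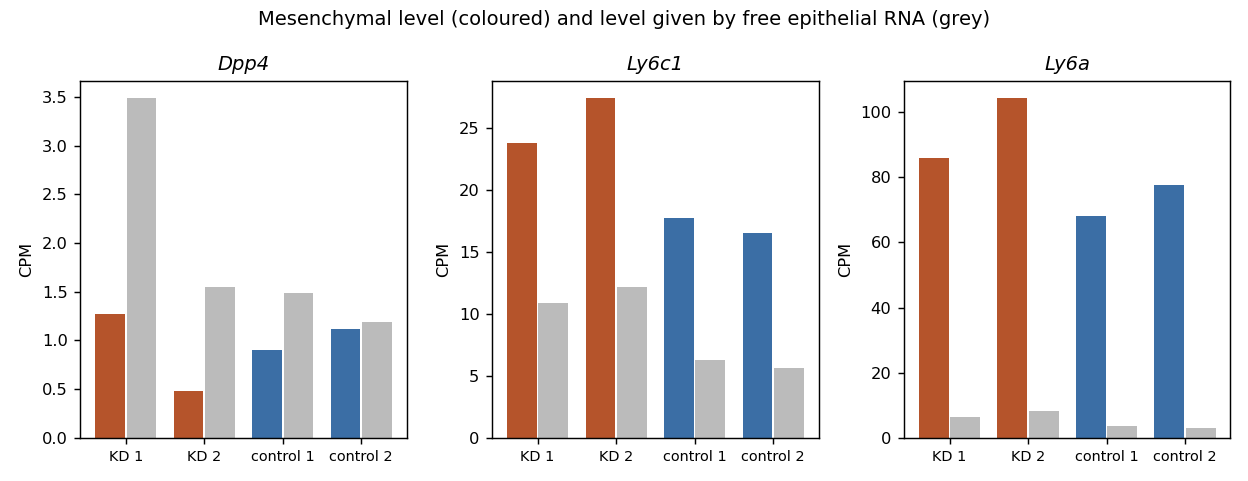
Level of Dpp4, Ly6c1 and Ly6a in summed mesenchymal cells (coloured bars, CPM, 1 pair of bars per library) beside the level that free epithelial RNA would give by the AT2 marker estimate (grey bars), which is too high for Dpp4. The grey bar exceeds the coloured one for Dpp4 in all 4 libraries, is 34.3% to 45.7% of it for Ly6c1 and 3.97% to 7.95% for Ly6a.

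Over all mesenchymal classes together, Lum and Dcn were found more often in Pi16-positive than in Pi16-negative cells. Each mesenchymal cell of at least 2000 UMIs was thinned to 2000, which kept 7220 and 5078 KD cells and 11145 and 10854 control cells. Pi16 was then found in 71 KD cells and 151 control cells. Dpp4 was found in 0 of these 71 and 0 of these 151 cells, but also in only 24 of 12227 Pi16-negative KD cells and 41 of 21848 Pi16-negative control cells, so whether the 2 genes meet in a cell was not detectable at this depth. Lum was found in 26.8% of Pi16-positive and 2.37% of Pi16-negative cells in KD, and in 22.5% and 5.06% in control. Dcn was found in 59.2% of Pi16-positive and 25.7% of Pi16-negative cells in KD, and in 59.6% and 33.2% in control. These shares pool the classes, and the Myofib-like class was high in Pi16, Lum and Dcn alike. The part of class make-up in them was not tested. Cd34 was found in 7 of the 71 Pi16-positive KD cells (9.86%, against 1.30% of Pi16-negative ones) and in 0 of the 151 Pi16-positive control cells, where 0.119% of Pi16-negative cells had it. Detection was sparse: between 54.0% and 60.9% of cells showed none of the 9 members at this depth, and 1 cell, in KD library 1, showed 6; no cell showed more.

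Across the whole mesenchyme the KD cells had more Cd34 and Ly6c1 RNA and less Lum RNA than the control cells. Cd34 was at 7.04 ± 1.00 CPM in KD and 0.743 ± 0.032 CPM in control, Ly6c1 at 25.6 ± 2.5 and 17.1 ± 0.9 CPM, and Lum at 18.9 ± 1.2 and 33.9 ± 6.1 CPM (SD, n = 2 libraries each). By edgeR's quasi-likelihood test at an adjusted p under 0.05, 2 members rose, 1 fell and 6 did not pass, where 10.6% of 17481 genes passed (4.42% rose and 6.22% fell). The 2 groups did not overlap for 5 of 9 members, against 57.4% of all genes.

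**Figure D3:**
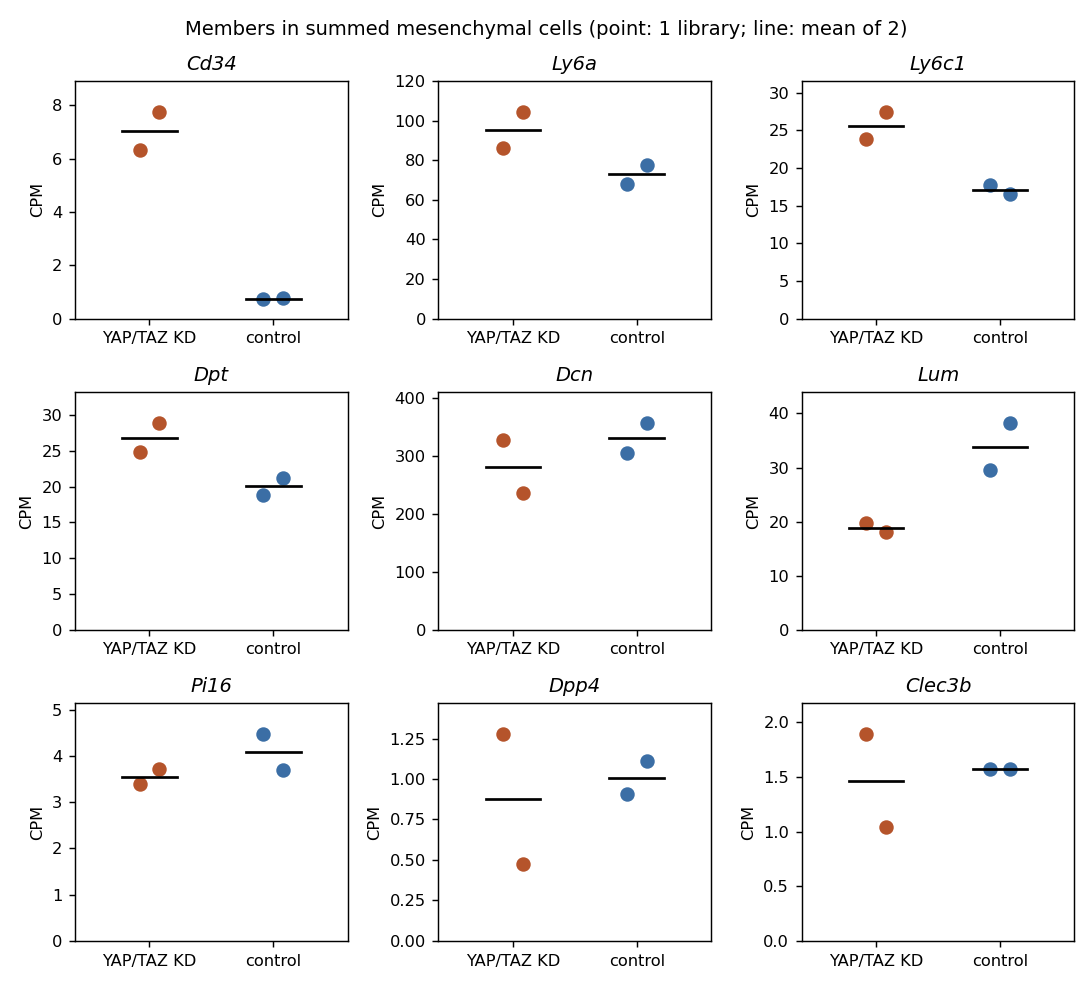
Level of each member in summed mesenchymal cells (y axis, CPM, from 0); a point is 1 library and the line is the mean of 2. Cd34 lies between 6.33 and 7.74 CPM in KD and between 0.721 and 0.766 CPM in control; both Lum points of KD lie below both of control, and the groups overlap for Pi16, Dpp4, Dcn and Clec3b.

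Cd34 read 6.33 and 7.74 CPM in KD libraries (258 and 260 counts), against 0.721 and 0.766 CPM in control libraries (39 and 42 counts). The groups lay far apart. The log2 fold change was 3.28 ± 0.19 (SE, adjusted p = 0.00018), and it passed in all 13 alternative analyses, including those without each library (adjusted p from 1.8e-31 to 0.00059). The pooled counts gave a ratio of 9.37 with an exact 95% interval of 7.40 to 12.0, which covers counting error only. At the fixed depth of 2000 UMIs, 1.23% and 1.52% of KD mesenchymal cells had a Cd34 UMI, against 0.135% and 0.101% of control cells. In AT2 cells, which should lack Cd34, the shares were 1 of 875 and 0 of 223 cells in KD and 0 of 451 and 0 of 462 cells in control; median depths before thinning were 3938 to 5865 UMIs in the mesenchymal and 3807 to 5466 UMIs in the AT2 cells. Without thinning, 2.74% and 3.79% of KD and 0.316% and 0.270% of control mesenchymal cells had a UMI.

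Cd34 is also an endothelial gene, so endothelial markers are given beside it. Of all genes tested in the mesenchyme, 4.42% rose and 6.22% fell. Of 9 endothelial markers tested, Kdr, the VEGF receptor, and Emcn, an endothelial sialomucin, rose and 7 did not pass, and the summed level of all 10 listed was 22.1 and 22.7 CPM in KD and 13.1 and 15.5 CPM in control, with none at 0. Kdr read 2.72 and 3.51 CPM in KD, against 0.370 and 0.219 CPM in control (log2 3.43 ± 0.29, adjusted p = 0.0011), and Emcn 2.90 and 3.63 CPM in KD, against 1.09 and 1.30 CPM in control (1.49 ± 0.21, adjusted p = 0.0058). The defining markers Pecam1 and Cdh5 were at 3.39 and 3.13 CPM and at 0.736 and 0.506 CPM in KD, against 3.23 and 2.61 CPM and 0.462 and 0.146 CPM in control. Their part in the Cd34 result was not tested. Of 7 immune markers tested 3 rose (Tyrobp, Fcer1g and Ptprc), against the same 4.42% of all genes. The summed level over the 10 listed was 17.8 and 16.3 CPM in KD and 12.4 and 9.63 CPM in control, with Cd3e at 0. The part of immune markers was not tested either.

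Lum, a proteoglycan that spaces collagen fibrils, read 19.7 and 18.1 CPM in KD, against 29.5 and 38.2 CPM in control. Both KD libraries lay below both control libraries. The log2 fold change was -0.80 ± 0.16 (adjusted p = 0.019). It no longer passed without KD library 2 or with every class given the same weight in each library, where it was -0.32 (highest adjusted p = 0.26).

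Ly6c1 read 23.8 and 27.4 CPM in KD, against 17.8 and 16.5 CPM in control, with no overlap. The log2 fold change was 0.62 ± 0.11 (adjusted p = 0.014). Free epithelial RNA, by the estimate used for Dpp4, would give 10.9 and 12.2 CPM of this in KD and 6.29 and 5.67 CPM in control. That would leave 12.9 and 15.2 CPM in KD and 11.46 and 10.9 CPM in control. For Dpp4 the same estimate exceeded the measured level in all 4 libraries, so it may take off too much here. With that RNA taken off for all genes, an alternative chosen after seeing the data, Ly6c1 no longer passed (0.40 ± 0.12, adjusted p = 0.067), nor did it without KD library 2 (adjusted p = 0.077).

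Dpt read 24.8 and 28.9 CPM in KD, against 18.8 and 21.2 CPM in control (log2 0.46 ± 0.12, adjusted p = 0.052). Ly6a read 86.0 and 104 CPM in KD, against 68.1 and 77.7 CPM in control (0.42 ± 0.13, adjusted p = 0.077). Neither gene overlapped between the groups, and neither passed; Dpt passed in 7 of 13 alternatives and Ly6a in 3 of 13. Dcn, at 326 and 236 CPM in KD and 304 and 356 CPM in control, had overlapping groups (-0.18 ± 0.20, adjusted p = 0.57). Pi16 was at 3.39 and 3.72 CPM in KD and 4.47 and 3.703 CPM in control (-0.16 ± 0.16, adjusted p = 0.56). Dpp4 (-0.12 ± 0.42) and Clec3b (-0.03 ± 0.30) rested on few counts, and their SE would hide changes of moderate size. Pi16, Dpp4, Cd34 and Dpt each overlap a gene on the other strand, and the sources used here do not state whether the counting used strand.

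The same contrast was then tested inside the 8 classes with at least 50 cells in every library. Of 52 pairs of a member and a class that could be tested, 13 rose, 3 fell and 36 did not pass, against 4.47% of 93100 pairs of any gene and class. Class by class, the share of all genes that passed was 2.32% in Cycling Fibroblasts, 6.25% in EMT-like, 8.21% in Fibroblasts, 2.54% in Inflammatory Fibroblasts-1, 2.56% in Inflammatory Fibroblasts-2, 2.48% in Myo1f+ Fibroblasts, 7.33% in Myofib-like and 1.31% in Unknown Mesenchymal. Cd34 and Dpt made up 10 of the 13 rises. In several of these classes Cd34 reached the filter on low counts through KD cells alone, as given below. Without the filter on low counts 0 genes passed in Cycling Fibroblasts and in Myofib-like. Without either KD library hardly any gene passed in Cycling Fibroblasts. Calls lost in those alternatives, given below, are therefore not particular to the members.

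Cd34 rose in 5 of the 6 classes where it could be tested. In Inflammatory Fibroblasts-2, Cycling Fibroblasts, Fibroblasts and EMT-like cells it reached the filter on low counts through KD cells alone. The calls in those classes are therefore descriptions. In Myofib-like cells Cd34 read 9.78 and 22.8 CPM in KD, against 2.22 and 2.77 CPM in control (log2 2.74 ± 0.37, adjusted p = 0.00017, lost without the filter, adjusted p = 0.22). The class mixes clusters 4 and 15 unequally: 90 of 98 KD counts lay in cluster 4 and 25 of 34 control counts in cluster 15. Cluster 4 alone read 9.18 and 24.7 CPM in KD, against 1.54 and 1.06 CPM in control, and cluster 15 read 12.6 and 3.85 CPM in KD, against 2.85 and 4.86 CPM in control, where the groups overlapped; neither was tested. In Inflammatory Fibroblasts-2 it read 15.3 and 10.6 CPM in KD, against 0.325 and 0.150 CPM in control, where the control value is 3 counts in all; the pooled ratio was 56.7 with an exact 95% interval of 17.7 to 289. In Cycling Fibroblasts it read 6.57 and 9.80 CPM in KD, against 0.446 and 0.581 CPM in control, and in the class Fibroblasts 2.39 and 1.87 CPM in KD, against 0.390 and 0.308 CPM in control. In EMT-like cells the change was 2.22 ± 0.53 (adjusted p = 0.020). In Unknown Mesenchymal cells, where control cells already held the most Cd34, it was 1.05 ± 0.63 and did not pass (adjusted p = 0.56). In Fibroblasts and Inflammatory Fibroblasts-2 it passed in every alternative that could be fitted; in Cycling Fibroblasts it was lost without the filter and without either KD library (highest adjusted p = 0.71), and in EMT-like cells without KD library 1 or either control library (highest adjusted p = 0.18).

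Dpt rose in 5 of 8 classes and had a positive log2 fold change in all 8. In Inflammatory Fibroblasts-1 it read 34.0 and 38.4 CPM in KD, against 10.4 and 14.8 CPM in control (1.57 ± 0.23, adjusted p = 0.00028), which passed in all 10 alternatives. In Cycling Fibroblasts it read 28.8 and 27.3 CPM in KD, against 7.88 and 11.8 CPM in control (1.53 ± 0.25, adjusted p = 0.0013, lost without the filter and without either KD library, highest adjusted p = 0.74), and in Myofib-like cells 37.9 and 40.9 CPM in KD, against 19.96 and 22.4 CPM in control (0.95 ± 0.17, adjusted p = 0.0020, lost without the filter, adjusted p = 0.19). In Inflammatory Fibroblasts-2 the change was 0.91 ± 0.24 (adjusted p = 0.036), with KD libraries at 58.9 and 135 CPM; it was lost by DESeq2, with length offsets, with limma voom and without KD library 2 (0.28, the highest adjusted p, 0.82). In the class Fibroblasts it was 0.54 ± 0.15 (adjusted p = 0.041), lost by DESeq2, without the filter and without either KD library or control library 1 (highest adjusted p = 0.22).

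**Figure D4:**
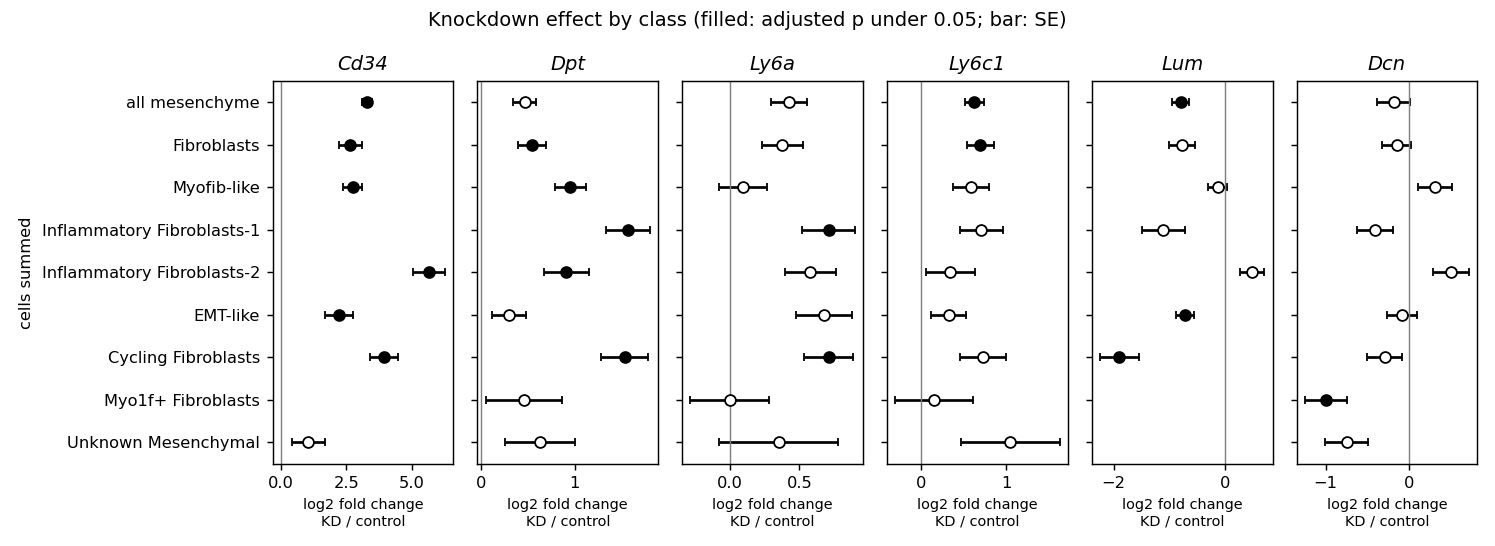
Log2 fold change of KD over control (x axis; bars are SE) for 6 members in all mesenchyme and in 8 classes; filled points passed at an adjusted p under 0.05, and a missing point was not tested. Cd34 and Dpt points lie right of 0 in every class tested, while Lum and Dcn points lie on both sides. Several Cd34 points are of classes where only KD cells reached the filter on low counts.

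The other members passed in few classes. Ly6a rose in Cycling Fibroblasts (0.71 ± 0.18, adjusted p = 0.037) and Inflammatory Fibroblasts-1 (0.71 ± 0.19, adjusted p = 0.046), with 4 and 5 of 10 alternatives passing (highest adjusted p = 0.74 and 0.53). Ly6c1 rose in the class Fibroblasts (0.70 ± 0.16, adjusted p = 0.021, lost without the filter, with length offsets and without control library 2, highest adjusted p = 0.12). Lum fell in Cycling Fibroblasts, to 8.08 and 4.64 CPM in KD, against 18.1 and 30.2 CPM in control (-1.90 ± 0.35, adjusted p = 0.0038, lost without either KD library or the filter, highest adjusted p = 0.74). It also fell in EMT-like cells, to 15.6 and 16.2 CPM in KD, against 28.1 and 25.6 CPM in control (-0.72 ± 0.17, adjusted p = 0.019, lost by DESeq2 and without KD library 2 or control library 1, highest adjusted p = 0.094). Dcn fell in Myo1f+ Fibroblasts (-0.999 ± 0.25, adjusted p = 0.024, lost by DESeq2, with the replicate block and without KD library 2 or control library 2, highest adjusted p = 0.49). Pi16 did not pass in any of 5 classes; in the Myofib-like class, which holds most of it, the change was 0.39 ± 0.18 (adjusted p = 0.23). The Myofib-like class is made of clusters 4 and 15, which KD and control cells fill unequally: cluster 4 held 519 and 439 KD and 858 and 918 control cells, and cluster 15 held 99 and 39 KD and 703 and 594 control cells. Within cluster 4 the mean of Pi16 was lower in KD, with overlapping groups, at 29.8 and 28.4 CPM in KD and 40.8 and 29.1 CPM in control. Lum there read 112 and 107 CPM in KD, against 152 and 188 CPM in control. Neither cluster was tested on its own. Clec3b did not pass in either of its 2 classes.

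Whether the KD effect itself differed between classes was tested as an interaction. It passed for Dcn (adjusted p = 6.8e-07), Lum (2.2e-05) and Dpt (0.0068), where 7.96% of 14888 genes passed. Lum had log2 values from -1.90 in Cycling Fibroblasts to 0.49 in Inflammatory Fibroblasts-2, and Dcn from -0.999 in Myo1f+ Fibroblasts to 0.51 in Inflammatory Fibroblasts-2. Dpt was positive throughout and ranged from 0.30 in EMT-like cells to 1.57 in Inflammatory Fibroblasts-1; its interaction was lost without control library 1 and with limma voom (highest adjusted p = 0.57). For Cd34 the interaction had an adjusted p of 0.055 and passed in 5 of 9 alternatives, and for Ly6c1 it was 0.86.

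The class Fibroblasts is made of 5 clusters, most of which held cells mainly of 1 group. Cluster 0 held 89 KD and 4447 control cells, cluster 5 held 2542 KD and 83 control cells, and cluster 18 held 59 KD and 1146 control cells, so KD and control cells of the class lie largely in different clusters. Clusters 8 and 11 had at least 50 cells in every library: cluster 8 held 978 KD and 1243 control cells, and cluster 11 held 220 KD and 1529 control cells. In cluster 8 Ly6c1 rose (23.8 and 26.1 CPM in KD, against 14.5 and 12.6 CPM in control; 0.93 ± 0.25, adjusted p = 0.038, where 3.77% of 10766 genes passed), lost without each of the 4 libraries and with length offsets (highest adjusted p = 0.13), and DESeq2 gave it no adjusted p. In cluster 11 Dpt rose (39.9 and 55.5 CPM in KD, against 19.5 and 17.1 CPM in control; 1.44 ± 0.29, adjusted p = 0.030, where 0.53% of 9254 genes passed), lost by DESeq2 and without KD library 2 (highest adjusted p = 0.21). In cluster 5, Dpt in KD cells read 24.1 and 24.96 CPM, and in cluster 0 control cells read 15.6 and 19.1 CPM.

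Some classes held cells of mostly 1 group and could not be contrasted. Tgfbi+ Fibroblasts held 1335 KD and 43 control cells, and in KD they carried 29.9% of all mesenchymal Cd34 counts with 10.6% of the UMIs. Their Dcn read 547 and 491 CPM in KD. Wnt4+ Fibroblasts held 2333 KD and 39 control cells, with Cd34 at 4.67 and 4.90 CPM, Dcn at 99.1 and 92.8 CPM and Dpt at 15.9 and 16.3 CPM in KD. SMC held 53 KD and 1477 control cells, with Cd34 at 0.373 and 0.933 CPM and Dcn at 333 and 430 CPM in control.

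In the epithelium none of the 7 members tested passed by edgeR (0.933% of 13822 genes did). At an unadjusted p under 0.05, where 1363 of the 13822 genes lay, 3 did: Ly6a (0.63 ± 0.24), Dcn (-0.68 ± 0.24) and Lum (-0.86 ± 0.32). The difference between the mesenchymal and the epithelial effect passed for 0 of 9 members (3.69% of 17204 genes passed; at an unadjusted p under 0.05, Dcn alone did, with 2584 of the 17204 genes). For Cd34 this difference was 0.49 ± 1.35, from 16 and 3 KD counts and 1 and 1 control counts in the epithelium, and so was not resolved at this depth. Dcn in epithelial cells read 10.1% and 7.46% of its mesenchymal level in KD libraries and 15.2% and 10.9% in control libraries, and the fibroblast collagen Col1a2 read 8.02% and 5.02% in KD and 11.9% and 7.74% in control; the part of free mesenchymal RNA in the epithelial values was not tested.

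Among the 26 further genes listed for adventitial fibroblasts, 18 did not pass, 6 fell and 2 rose, where 6.22% of all genes fell and 4.42% rose, with a median log2 change of 0.06, beside 0.01 over all genes. Those that fell were the transcription factors Ebf2 (5.01 and 5.78 CPM in KD, against 18.4 and 16.2 CPM in control; -1.64 ± 0.13) and Ebf1 (-1.02 ± 0.13), the adhesion receptor Adgrd1 (-1.32 ± 0.21), the guidance factor Sema3c (-0.52 ± 0.10), the collagen Col14a1 (-0.52 ± 0.13) and the annexin Anxa3 (-0.40 ± 0.10). Il33, an alarmin cytokine, rose to 86.9 and 112 CPM in KD, against 55.8 and 60.5 CPM in control (0.81 ± 0.13), and the protease Htra3 rose by 0.76 ± 0.15. 

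Among 13 tested small leucine-rich proteoglycans, 5 fell, 1 rose and 7 did not pass, where 6.22% of all genes fell and 4.42% rose. The median log2 change was -0.43, beside 0.01 over all genes. This is the family of Dcn and Lum, and both are counted among the 13. Besides Lum, those that fell were Fmod (0.614 and 0.655 CPM in KD, against 3.20 and 4.01 CPM in control; -2.46 ± 0.24), Prelp (-1.01 ± 0.17), Podn (-0.43 ± 0.11) and Epyc, which was under 0.4 CPM in all 4 libraries. Podnl1 rose (1.26 ± 0.21). Against 10.6% of all genes, 1 of 9 tested Ly6 genes passed, Ly6c1; of 20 interferon response genes Ifit3 (0.95 ± 0.18) and B2m (0.76 ± 0.17) rose and 18 did not pass; and 0 of 7 relatives of Dpp4 passed (edgeR, adjusted p).

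The genes whose class pattern was most like a member's, by Pearson r over the same 32 points among 8869 genes, are given as a description. For Ly6a they were Aoc3 and Fbln1 (both 0.92) and Nppc (0.90), for Cd34 Chst2 (0.88), Abhd17b (0.86) and Atxn2l (0.84), for Dcn Ccdc80 and Sorcs2 (both 0.87) and Itga9 (0.86), and for Lum Srpx2 (0.87), Serinc2 and Enpp3 (both 0.86). For Pi16 they were Tgfb2, Tgfbi and Itga9 (0.77 to 0.76), for Dpt Wnt4 (0.80), Flrt2 (0.74) and Il3ra (0.68), for Ly6c1 Mgst1 (0.78), Cd1d1 and Add3 (both 0.74), and for Clec3b Sfrp2 (0.79), Dnah7b and Rbm46 (both 0.78). For Dpp4, at few counts, no r exceeded 0.53.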

How the data were processed

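RNA of single cells was counted in 2 KD and 2 control libraries made with the Chromium multiome (ATAC plus gene expression) chemistry, per the labels' protocols. The authors deposited whole-number UMI counts per gene and cell (45936 cells), cell classes and clusters; the sums equalled the deposited totals in all cells, and the deposited mitochondrial percent and doublet enrichment ratio were read and not used as filters. Per the submitters' processing notes, reads were placed on GRCm38 (mm10); the sources used here name no aligner or counter. A further 52 deposited cell columns were not used.

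Counts were summed per library and class; mesothelial cells, clusters 19 and 23 (taken as mixed) and cluster 32 were left out of the tests. Taking off free epithelial RNA was an alternative chosen after seeing the data. Tests used edgeR 4.0.16 (R 4.3.3) quasi-likelihood fits with TMM scaling, its filter on low counts and Benjamini-Hochberg adjustment over all genes; DESeq2 1.42.0, limma 3.58.1 (voom), other scaling, no filter, length offsets, a replicate block and leaving out each library were alternatives. Classes needed 50 cells in every library. Thinning was to 2000 UMIs in cells with at least as many; doublets were not called anew. The fits were tried on simulated counts with large changes in well-counted genes only. That trial does not cover smaller changes or sparse counts such as those of several members. All 9 members were named; of other lists, genes that passed were named, up to 8 by smallest p, and likeness used genes of at least 10 CPM. Members and lists were chosen with earlier results of these data known. Gene positions are from GENCODE vM21.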

Additional observations from a re-analysis of the deposited data

Results flagged for a closer look

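The KD effect differed between classes, by the interaction test, for Dcn (adjusted p = 6.8e-07), Lum (adjusted p = 2.2e-05) and Dpt (adjusted p = 0.0068).

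Some signal lay in cells outside the tests. In 42 KD mesothelial cells Cd34 averaged 58.2 CPM from 16 counts, against 0 counts in 101 control mesothelial cells. With 3 counts set over the control group the ratio would be 6.47, which leaves out the error of the KD counts and the library spread. In clusters 19 and 23, left out as mixed, the KD means were 27.1 CPM for Dpp4, 4.12 CPM for Cd34, 154 CPM for Ly6a, 165 CPM for Ly6c1 and 15.9 CPM for Dpt. These are levels only and carry no contrast with control. In cluster 32, deposited as AT2, Dcn averaged 48.5 CPM in KD, against single libraries at 35.5 and 28.5 CPM in control.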

How the results depend on the processing

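With 2 libraries per group the counts of calls depend on single libraries. Members called in the mesenchyme were 3, with 5 by DESeq2 and 1 to 5 with a library left out; all genes called were 1860, with 1001 at equal class weight and 998 to 3666 with a library left out. Member and class pairs called were 16, with 10 by DESeq2 and 7 to 15 with a library left out, and pairs of any gene and class were 4158, with 2331 by DESeq2 and 2492 to 7028 with a library left out; without the filter on low counts 0 genes passed in Cycling Fibroblasts and in Myofib-like. In the Fibroblasts clusters they were 2, with 0 by DESeq2 (which gave Ly6c1 in cluster 8 no adjusted p), 1 with length offsets and 0 to 3 with a library left out; all genes were 455, with 157 by DESeq2, 357 with length offsets and 277 to 748 with a library left out. Interactions between classes passed for 3 members, with 5 by DESeq2, 7 without the filter and 2 to 4 with a library left out; all genes were 1185, or 424 to 1423. Between mesenchyme and epithelium they passed for 0 members, with 1 without the filter and 0 to 2 with a library left out; all genes were 634, with 246 by DESeq2, 1232 without the filter and 409 to 949. Replicate numbers do not mark a shared batch in the labels, and same-numbered libraries had a correlation of deviations of 0.115; with the replicate number as a block, 5 members and 5818 genes passed in the mesenchyme. Of 874 single values under alternatives, 57 lost a call, 51 gained one, 39 that passed in neither analysis changed sign and 0 called values turned; 16 of 18 shares of cells moved with thinning to 1000 UMIs. The cause of the shifts in calls was not tested, while a share of cells with a UMI falls by itself when fewer UMIs are kept per cell. Log2 changes had a Spearman correlation of -0.23 with gene length over 17474 genes. Depth limits Dpp4, Clec3b and Pi16.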

Other observations

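Other marker lists in the mesenchyme moved beside the members, where 4.42% of all 17481 genes tested rose and 6.22% fell. Of 5 tested mesothelial markers 4 fell, namely Wt1 (10.9 and 9.17 CPM in KD, against 38.6 and 28.4 CPM in control; log2 -1.69 ± 0.17), Krt19 (-0.83 ± 0.10), Msln (-1.67 ± 0.21) and Upk1b (-1.05 ± 0.17). Of 10 alveolar fibroblast markers Inmt (58.9 and 76.3 CPM in KD, against 34.5 and 40.5 CPM in control; 0.89 ± 0.15) and Wnt2 (0.63 ± 0.16) rose, Limch1 fell (-0.70 ± 0.11) and 7 did not pass. Of 9 AT2 markers 4 rose (Sftpa1, Cxcl15, Lamp3 and Sftpb) in mesenchymal cells, with the summed level at 2394 and 1219 CPM in KD and 820 and 879 CPM in control.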
